A study of Rattus norvegicus with 15 samples.

Results

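Runx2 and 9 genes of mineralized matrix were followed in rat lower first molars before the stages at which dentin and enamel form. The genes are the transcription factors Runx2 and Sp7, the phosphatase Alpl, the citrate transporter Slc13a5, the acidic matrix proteins Ibsp, Spp1 and Dmp1, the collagen-binding protein Sparc, and the enamel proteins Ambn and Amelx. All 10 members had a row among the 14185 genes of the count table.

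RNA was sequenced from single tooth germs of DA/HanRj rat embryos, with 5 teeth at each of 3 stages. The E15 group carries the label E15.5 and stands for the bud stage. The E17 group carries the label E17.5 and stands for the cap stage, and the E18 group is labelled by that day. The embryos were untreated and of wild type, by the labels for E18 and by the methods of the study for E15 and E17. The teeth came from 14 embryos, since 1 embryo gave both E17 replicate 1 (left) and replicate 2 (right). Germs of all stages were kept in RNAlater and carried a little of the tissue around them, from the same sources. Each stage also has a title code of its own, so stage and any difference in collection that follows these codes cannot be told apart.

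Teeth mineralize in both of their tissues. Odontoblasts, which come from the dental mesenchyme, lay down dentin on a collagen scaffold much as osteoblasts lay down bone, and epithelial ameloblasts lay down enamel on a scaffold of amelogenin and ameloblastin. RUNX2 starts the osteoblast programme and is also needed in the dental mesenchyme for the tooth to pass the bud stage. SP7 (osterix) acts after RUNX2, and alkaline phosphatase, bone sialoprotein, osteopontin and DMP1 are products of cells that make or are about to make mineralized matrix. The jaw bone that forms around the germ uses the same genes.

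Library totals were between 10993502 and 27571541 counts, and 3 counts, the most that a count of 0 allows, corresponded to 0.109 to 0.273 CPM (counts scaled to a common library size). Such limits cover counting error alone. Levels below are normalized counts, that is counts divided by a size factor for each library, and are not corrected for gene length, so that they are compared between teeth and not between genes. All 6 dental mesenchyme markers and both dental epithelium markers analysed (Trp63 and Edar) were present at every stage. The summed mesenchyme markers were 25910 to 29982 at E15, 20110 to 22589 at E17 and 16650 to 21610 at E18, and the summed epithelium markers 1145 to 1768, 1900 to 2361 and 2856 to 3900. From E15 to E17, 4 of the 6 mesenchyme markers were lower by edgeR's test described below, over the whole span 3 were, and from E17 to E18 all 6 were not called, while both epithelium markers were higher in each of these comparisons. Their part in the changes of the members was not tested. Correlated with the rest of its stage, E18 replicate 3 averaged 0.918 and the remaining E18 teeth 0.965 to 0.968. Calls of members that depend on it are given without it. At E15 replicate 3 stood apart by its counts, with a chi-square per gene of 45.4 to 67.3 against the other teeth, which had 7.02 to 12.4 among themselves, and its mean correlation was the lowest of the stage, at 0.959. Markers of cartilage, muscle, endothelium, erythroid cells and glia were not analysed here.

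Stages were compared over all genes by edgeR's quasi-likelihood F test, and a gene was called at a Benjamini-Hochberg adjusted p under 0.05. Of the members 9 could be tested, since Ambn had too few counts. From E15 to E17, 2 of the 9 members were called, Sparc and Spp1, both higher, where 18.3% of all 12627 genes tested were called. From E17 to E18, 2 of 9 were called, Ibsp and Slc13a5, both lower, against 2.54% of 12718 genes. Over the whole span from E15 to E18, 5 of 9 were called, with Sparc and Spp1 higher and Runx2, Sp7 and Slc13a5 lower, against 21% of 12661 genes. The median log2 fold change of the members was 0.79, -0.24 and -0.35 in these comparisons, and that of all genes lay between -0.02 and -0.01. The 3 comparisons share libraries and are not independent of one another.

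**Figure D1:**
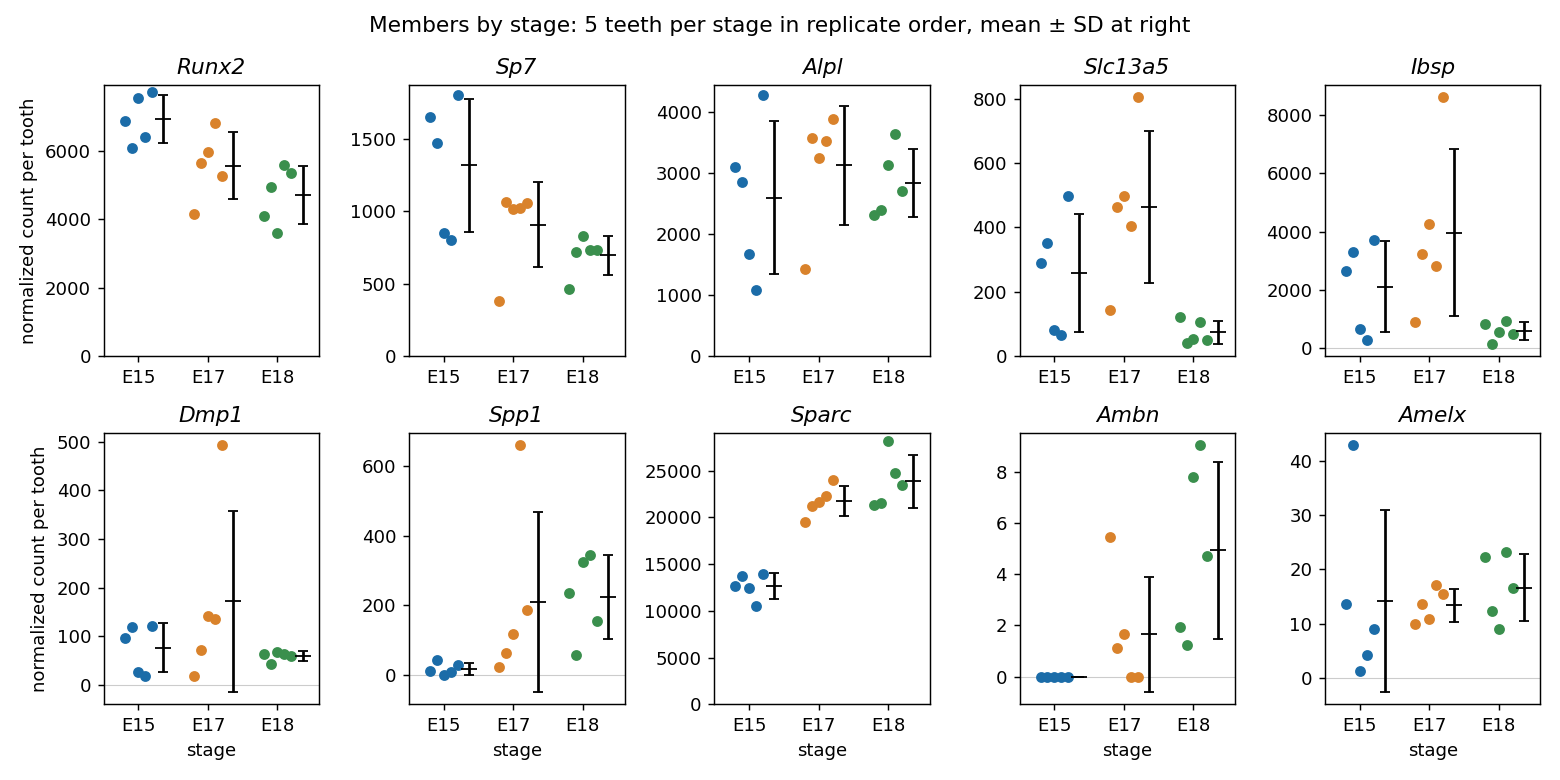
Normalized counts (vertical axis, linear, a separate scale for each gene) of the 10 members at E15, E17 and E18 (horizontal axis); each point is 1 tooth, in replicate order, and the bar at the right of each stage is the mean with its SD (n = 5). Sparc separates E15 from the later stages without overlap, Ibsp and Slc13a5 are low in all E18 teeth, and Ambn is at 0 in all E15 teeth.

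Runx2 (ENSMUSG00000039153), the regulator at the head of the osteoblast programme, was abundant at every stage and lowest at E18. The 5 teeth of E15 had, in replicate order, 6872, 6085, 7538, 6395 and 7709 normalized counts. Those of E17 had 4148, 5623, 5947, 6808 and 5268. The E18 teeth had 4085, 4946, 3585, 5577 and 5340. Every E18 tooth was thus below every E15 tooth, whereas E17 overlapped with both; such separation of E18 below E15 was found for 10.3% of all genes tested. Means were 6920 ± 703 at E15, 5559 ± 973 at E17 and 4706 ± 846 at E18 (SD, n = 5). Between E15 and E18 Runx2 fell 1.46-fold (log2 fold change -0.55 ± 0.13 SE, adjusted p = 0.0109, edgeR), and it remained called in all 16 alternative analyses. In bulk tissue, fewer cells of a type and less RNA per cell cannot be told apart. For E17 against E15 the log2 fold change was -0.31 ± 0.11 (adjusted p = 0.0809, edgeR), which passed the threshold with DESeq2 and when E17 replicate 4 was left out. For E18 against E17 it was -0.24 ± 0.15 (adjusted p = 0.472, edgeR).

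RUNX2 binds DNA at the hexamer TGTGGT, or ACCACA on the other strand, and the 250 bases before the annotated gene starts (RefSeq, rat assembly GRCr8) were searched for it on both strands. Over all 33469 windows of this length, 14.5% held the hexamer. Windows were found for 9 of the members, with 2 for Runx2, and 2 of these 10 windows held it, the upstream one of Runx2 and that of Sparc. They are shown, 5′ to 3′ on the gene's strand, because they are the members' windows with the motif, which is in capitals. The Runx2 window is chr9:23664808-23665057 on the plus strand, with the motif starting 76 bases before the gene start. The Sparc window is chr10:40038817-40039066 on the minus strand, with the motif starting 205 bases before it. Other spellings of a RUNX site were not searched. No binding was measured, and the letters alone do not make a site.
Runx2: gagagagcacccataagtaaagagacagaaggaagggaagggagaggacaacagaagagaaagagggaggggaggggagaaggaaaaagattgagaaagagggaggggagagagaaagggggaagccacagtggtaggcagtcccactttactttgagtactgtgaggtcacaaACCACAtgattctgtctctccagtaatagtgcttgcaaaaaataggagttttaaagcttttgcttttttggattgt
Sparc: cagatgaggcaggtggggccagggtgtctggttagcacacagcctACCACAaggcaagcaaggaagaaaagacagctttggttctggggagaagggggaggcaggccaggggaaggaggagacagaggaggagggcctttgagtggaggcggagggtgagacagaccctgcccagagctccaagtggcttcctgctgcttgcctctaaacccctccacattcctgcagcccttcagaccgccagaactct

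Sp7 (ENSMUSG00000060284), which encodes osterix and lies downstream of RUNX2 in osteoblasts, differed more between the teeth of a stage than Runx2 did. E15 teeth had 1651, 1472, 853, 804 and 1801 normalized counts. At E17 the counts were 381, 1066, 1017, 1020 and 1058, and at E18 467, 716, 827, 734 and 732. At E15 replicates 3 and 4 were low, and at E17 the left tooth of the shared embryo (replicate 1) stood far below a tight group of 4. Sp7 fell 1.89-fold from E15 to E18 (log2 fold change -0.91 ± 0.24, adjusted p = 0.0206, edgeR), with 4 of 5 E18 teeth below all E15 teeth. This call was lost when E15 replicate 1 (-0.82) or replicate 5 (-0.78) was left out, with an adjusted p of up to 0.0537. Neither step alone passed, at -0.53 ± 0.28 for E17 against E15 (adjusted p = 0.215, edgeR) and -0.39 ± 0.26 for E18 against E17 (adjusted p = 0.500, edgeR).

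Alpl (ENSMUSG00000028766), the tissue-nonspecific alkaline phosphatase that removes the mineralization inhibitor pyrophosphate, had no stage at which it was clearly higher or lower. Its normalized counts were 3096, 2855, 1666, 1087 and 4282 at E15. They were 1435, 3573, 3245, 3518 and 3876 at E17, and 2311, 2398, 3134, 3639 and 2698 at E18. The ranges of all 3 stages overlapped, and the highest and lowest of the 15 teeth were both E15 teeth. The log2 fold change was 0.28 ± 0.33 for E17 against E15, -0.14 ± 0.24 for E18 against E17 and 0.14 ± 0.31 for E18 against E15, with adjusted p of 0.606, 0.766 and 0.782 (edgeR). The 3 lowest teeth, E15 replicates 3 and 4 and E17 replicate 1, were also the lowest of their stage in Sp7.

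Slc13a5 (ENSMUSG00000020805), a sodium-coupled transporter that brings citrate into the cell and whose loss disturbs enamel, was low in every E18 tooth. E15 teeth had 289, 351, 82.2, 66.2 and 498 normalized counts. E17 teeth had 144, 463, 497, 404 and 804, and E18 teeth 121, 41.7, 54.7, 106 and 50.8. All 5 E18 teeth were below all 5 E17 teeth, a separation in that direction that 2.59% of the genes tested showed. The fall from E17 to E18 was 6.06-fold (log2 fold change -2.60 ± 0.44, adjusted p = 0.0114, edgeR), and the call remained in all 17 alternative analyses. From E15 to E18 it fell 3.37-fold (-1.75 ± 0.55, adjusted p = 0.0417, edgeR). E15 replicates 3 and 4, however, were within the E18 range, and 6 of the 10 analyses that left out 1 tooth lost this call (E15 replicates 1, 2 and 5, with log2 fold changes of -1.71, -1.62 and -1.38, and E18 replicates 2, 4 and 5, with -1.61, -1.90 and -1.64). For E17 against E15 the log2 fold change was 0.85 ± 0.50 (adjusted p = 0.265, edgeR).

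Ibsp (ENSMUSG00000029306), bone sialoprotein, an acidic protein that nucleates mineral in bone and cementum, varied widely between teeth of the same stage. E15 teeth had 2639, 3284, 658, 263 and 3696 normalized counts. Those of E17 had 899, 3241, 4245, 2830 and 8609, whereas the E18 teeth had 833, 146, 566, 931 and 494. At E15 the highest tooth was 14.1 times the lowest, and at E17 9.57 times. Ibsp fell 6.65-fold from E17 to E18 (log2 fold change -2.73 ± 0.59, adjusted p = 0.0358, edgeR), with 4 of 5 E18 teeth below all E17 teeth and E17 replicate 1 within the E18 range. Leaving out E17 replicates 2, 3, 4 or 5 or E18 replicates 2, 4 or 5 took the adjusted p past 0.05, to at most 0.104, with log2 fold changes between -2.95 and -2.23. E18 against E15 gave -1.81 ± 0.67 (adjusted p = 0.0793, edgeR), called when E15 replicate 4 was left out (-2.10), and E17 against E15 0.92 ± 0.63 (adjusted p = 0.351).

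Dmp1 (ENSMUSG00000029307), dentin matrix acidic phosphoprotein, which is made by odontoblasts and osteocytes, was detected at low levels in all 15 teeth. Its raw counts were between 17 and 446 per library. Normalized counts at E15 were 95.4, 120, 27.0, 17.6 and 121, at E17 18.6, 71.3, 141, 136 and 493, and at E18 63.8, 42.9, 66.9, 63.3 and 59.1. At E17 replicate 5 was far above the others, and the highest tooth was 26.5 times the lowest, whereas the E18 teeth were within 1.56-fold of each other. No comparison passed, with log2 fold changes of 1.17 ± 0.68 (E17 against E15, adjusted p = 0.265), -1.53 ± 0.64 (E18 against E17, adjusted p = 0.267) and -0.35 ± 0.47 (E18 against E15, adjusted p = 0.620, all edgeR). Without E17 replicate 5 the first was 0.28 and the second -0.63.

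Spp1 (ENSMUSG00000029304), osteopontin, is secreted by osteoblasts, osteoclasts and macrophages and binds to mineral surfaces. At E15 it was close to the detection limit, with 20, 38, 0, 8 and 25 raw counts and 10.8, 41.7, 0, 8.3 and 28.0 normalized counts. At E17 the teeth had 24.0, 63.4, 117, 659 and 186 normalized counts, and at E18 236, 56.4, 325, 344 and 156. Every E18 tooth was above every E15 tooth, a separation upward shown by 12.7% of genes tested, and at E17 replicate 1 alone was within the E15 range. Spp1 rose 12.2-fold from E15 to E17 (log2 fold change 3.61 ± 0.87, adjusted p = 0.0110, edgeR) and was 12.8-fold higher at E18 than at E15 (3.68 ± 0.71, adjusted p = 0.00329, edgeR). Both calls remained in all 15 alternatives in which the gene was tested. The size of the first depended on E17 replicate 4: over the alternatives it was between 2.49 and 4.16. E18 against E17 gave 0.09 ± 0.74 (adjusted p = 0.953, edgeR), and the sign of this difference turned in 7 of 17 alternatives.

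Spp1 and an osteoclast protease were highest in the same tooth at E17 and at E18, but not at E15. The osteoclast markers with an identifier were Mmp9, a gelatinase, and Tcirg1, a proton pump subunit, and their sum was 341 to 464 at E15, 546 to 1141 at E17 and 972 to 1770 at E18. Mmp9 itself had 26.6, 30.7, 7.05, 33.1 and 40.3 normalized counts at E15, and 80.9, 294, 270, 635 and 328 at E17. At E18 it had 872, 465, 704, 1063 and 776. At E17 replicate 4 was the highest and replicate 1 the lowest in both Spp1 and Mmp9, at E18 replicate 4 was the highest and replicate 2 the lowest in both, and the sole E15 tooth without an Spp1 count, replicate 3, had the lowest Mmp9. The highest E15 tooth was replicate 2 for Spp1 and replicate 5 for Mmp9. Tcirg1 was lowest in the same tooth as Spp1 at each stage. Its highest teeth were others, replicate 2 at E17 (569) and replicate 3 at E18 (883). Mmp9 rose with Spp1 from E15 to E17 (log2 fold change 3.55 ± 0.48, adjusted p = 0.000232, edgeR). Of the 333 genes with a symbol whose mean reached 50 normalized counts, Mmp9 was the most similar to Spp1 over the 15 teeth (Pearson's r 0.91, and 0.90 after the stage means were removed), followed by Col1a1 (0.91, and 0.77 after removal) and Mmp14 (0.89, and 0.72). These correlations are descriptions over teeth that share stage, and the part of osteoclasts in the rise of Spp1 was not tested.

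**Figure D2:**
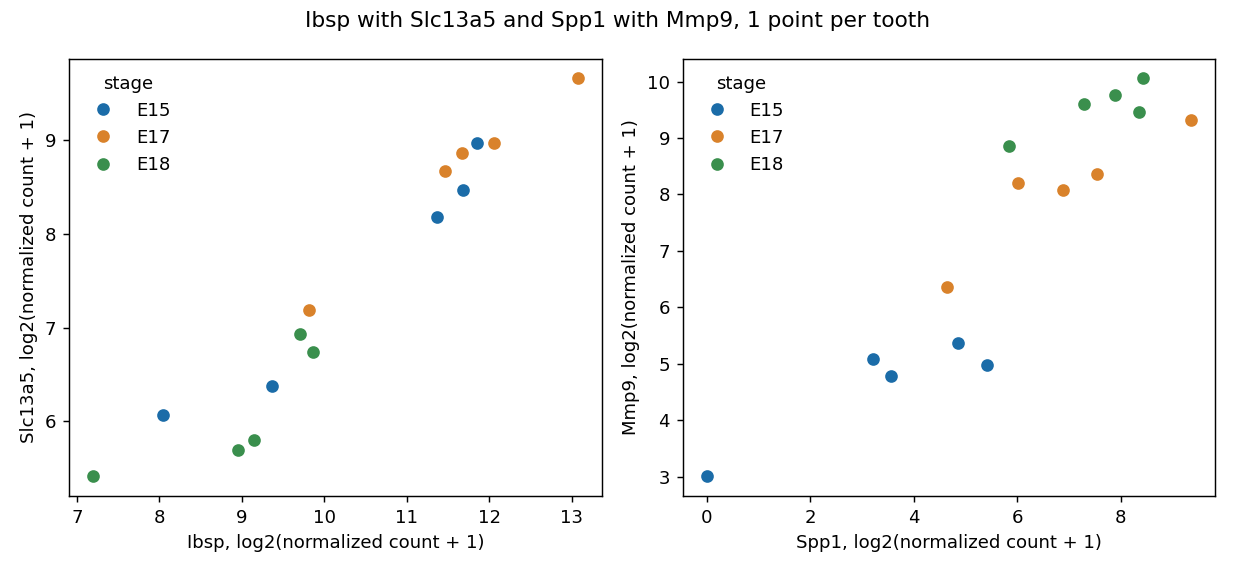
Levels on the log2(normalized count + 1) scale of Slc13a5 against Ibsp (left) and of Mmp9 against Spp1 (right), with 1 point for each of the 15 teeth, coloured by stage. On the left the teeth of all stages lie along a single line (r 0.97); on the right the E15 teeth are at the lower left, and E17 and E18 teeth extend to the upper right (r 0.91).

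Sparc (ENSMUSG00000018593), osteonectin, which binds collagen and calcium and is made widely by mesenchyme, varied little between the teeth of a stage, as Runx2 did at E15, and rose from E15. Normalized counts at E15 were 12625, 13747, 12442, 10471 and 13949. At E17 they were 19546, 21221, 21665, 22265 and 24038, and at E18 21367, 21509, 28159, 24736 and 23484. All later teeth were above all E15 teeth; 9.23% of the genes tested were separated upward in this way between E15 and E17. Sparc rose 1.73-fold from E15 to E17 (log2 fold change 0.79 ± 0.08, adjusted p = 2.61e-05, edgeR) and was 1.90-fold higher at E18 than at E15 (0.92 ± 0.11, adjusted p = 0.000178, edgeR), in all 16 alternatives of each. From E17 to E18 the difference was 0.13 ± 0.10 (adjusted p = 0.537, edgeR).

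Of the enamel proteins, products of ameloblasts, Ambn was at or near the detection limit. Amelx was low but counted in every tooth, with 1 to 46 raw counts. Ambn (ENSMUSG00000029288), ameloblastin, had no count in any E15 tooth. At E17 the raw counts were 5, 1, 2, 0 and 0, and at E18 4, 1, 7, 9 and 4, in all 8 and 25 counts. Detection thus went from 0 of 5 teeth to 3 of 5 and 5 of 5. With a floor of 3 counts over the 5 E15 libraries, the summed CPM was at least 8.11-fold higher at E18. An exact two-sided permutation test of log2(normalized count + 1) gave p = 0.00794 for E18 against E15 (0.0238 adjusted over 3 comparisons), the smallest p that 5 against 5 teeth can give. The same exact test gave p = 0.167 for E17 against E15 and p = 0.0794 for E18 against E17 (0.167 and 0.119 adjusted). Without E17 replicate 1, which held 5 of the 8 E17 counts, the exact permutation p of E18 against E17 was 0.0317 before adjustment. Without a filter on low counts, edgeR called E18 against E15 alone (adjusted p = 0.0187), and so did DESeq2. Amelx (ENSMUSG00000031354), amelogenin, had 1.2 to 42.8 normalized counts at E15, 9.8 to 17.1 at E17 and 8.9 to 23.1 at E18. Its highest and lowest teeth were both at E15, and no comparison was near the threshold (adjusted p between 0.618 and 0.954, edgeR).

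**Figure D3:**
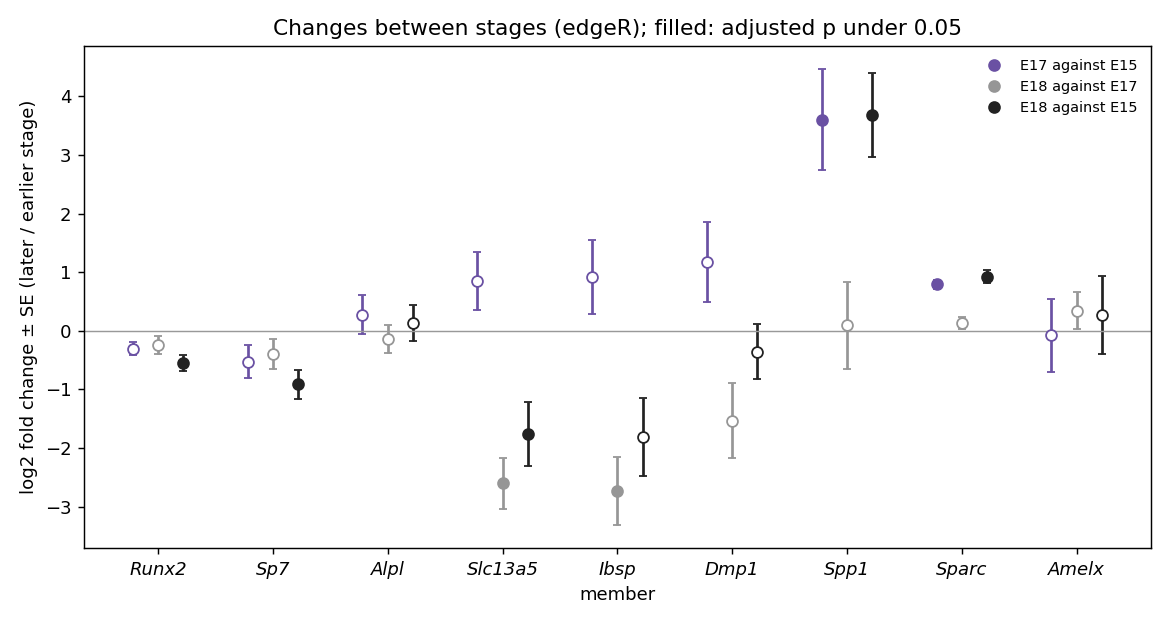
Fitted log2 fold change (vertical axis, later over earlier stage, with SE) of the 9 tested members for E17 against E15, E18 against E17 and E18 against E15 (colours); filled points have an adjusted p under 0.05 (edgeR). Sparc and Spp1 are filled above 0 for both comparisons with E15, and Ibsp and Slc13a5 are filled below 0 for E18 against E17.

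Whether the change from E17 to E18 differed from that from E15 to E17 was tested as a contrast over all 15 libraries. By the labels the earlier step runs from E15.5 to E17.5 and the later from E17.5 to E18. The contrast thus compares total changes over steps of unequal length. No member passed with edgeR, where 0.551% of 12894 genes did. The contrast was -3.45 ± 0.86 on the log2 scale for Slc13a5 (adjusted p = 0.100), -3.65 ± 1.09 for Ibsp (adjusted p = 0.203), -3.50 ± 1.29 for Spp1 (adjusted p = 0.364) and -0.66 ± 0.17 for Sparc (adjusted p = 0.117). DESeq2 called Slc13a5 and Sparc, and edgeR called Sparc when E18 replicate 3 was left out (-0.72, adjusted p = 0.0129). Without E17 replicate 4 the contrast of Spp1 was -1.29, and without E17 replicate 5 that of Ibsp was -2.64. For Runx2 it was 0.07 ± 0.24 and for Sp7 0.14 ± 0.48. None of the members was called between left and right teeth (9 left, 6 right), nor was any of 13013 genes by edgeR or of 13981 by DESeq2. An unadjusted p under 0.05 was reached by 119 genes with edgeR and 145 with DESeq2, in both a share below 0.05.

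Among teeth of the same stage, several members were high and low together. E15 replicates 1, 2 and 5 were above replicates 3 and 4 in Sp7, Alpl, Slc13a5, Ibsp and Dmp1, and E17 replicate 1 was the lowest E17 tooth in all 5 genes. E17 replicate 5 was the highest in Alpl, Slc13a5, Ibsp and Dmp1. At E18 the order was less shared, since Ibsp and Slc13a5 were both highest in replicates 1 and 4, whereas Sp7 was lowest in replicate 1. Runx2 followed these 5 genes in part, being highest in E15 replicate 5 and lowest in E17 replicate 1, as they were. At E15, however, its replicate 3 was the second highest.

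To measure this, each member's log2(normalized count + 1) was taken as the deviation from its stage mean, and the 28 pairs of the 8 members whose mean reached 50 normalized counts were correlated over the 15 teeth, with 100000 permutations within stages and adjustment over the pairs. All 28 values of Pearson's r were positive, 18 pairs passed by r and 20 by Spearman's rho. No such share was computed over pairs of other genes, so these counts cannot be read as particular to the members. Pairs with genes outside the members reached similar values, such as Sp7 with Bmp6 (r 0.92) and Spp1 with Mmp9 (r 0.90). The highest was that of Ibsp and Slc13a5 (r 0.95, rho 0.96, permutation p = 1e-05, the smallest that these permutations can give, adjusted p = 0.00028 for both). Without the 2 teeth farthest from the median of the deviations of Ibsp (E17 replicate 1 and E15 replicate 4) r was 0.90, and with both teeth of the shared embryo averaged it was 0.94. Sp7 and Alpl followed (r 0.92, rho 0.89, permutation adjusted p = 0.00101 and 0.00383, r 0.85 without the 2 farthest teeth). Ibsp with Dmp1 had r 0.87 and rho 0.88 (permutation adjusted p = 0.00101 and 0.00424, r 0.78 without 2 teeth), and Dmp1 with Slc13a5 r 0.87 and rho 0.86 (permutation adjusted p = 0.00101 and 0.00385, r 0.87 without 2 teeth). The 2 teeth were chosen by the first gene of each pair. For Dmp1 with Slc13a5 they were E17 replicates 1 and 5, with E15 replicate 4 kept. Its value without 2 teeth is therefore not comparable with those of the other pairs.

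Some of the other relations rested on few teeth. Sp7 with Ibsp had r 0.69 and rho 0.68 (permutation adjusted p = 0.0262 and 0.0333), but r was 0.38 without E15 replicate 4 and E17 replicate 1. Sp7 with Slc13a5 went from 0.71 (rho 0.63, permutation adjusted p = 0.0307 and 0.0472) to 0.40 on leaving out the same teeth. Runx2 passed with none of the other 7 members, with r between 0.06 and 0.45. Without E18 replicate 3 and E17 replicate 1, the teeth farthest from the median of its deviations, r of Runx2 was below 0 with Slc13a5 (-0.16), Dmp1 (-0.13), Ibsp (-0.086) and Spp1 (-0.015), and with the shared embryo averaged it was -0.060 with Sparc. A stage has 5 teeth, too few to give r within each stage alone. How much surrounding tissue each tooth carried was not measured.

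**Figure D4:**
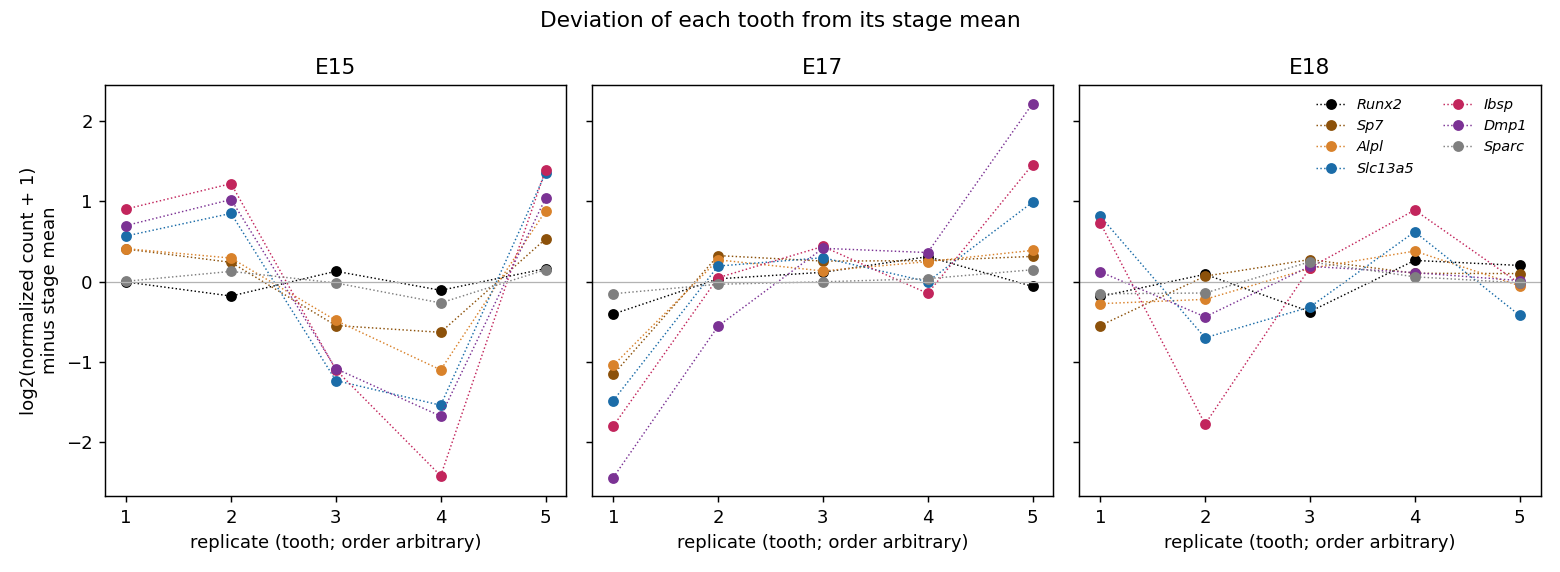
Deviation of each tooth from its stage mean on the log2(normalized count + 1) scale (vertical axis) for 7 members (colours), by replicate (horizontal axis; the order of replicates is arbitrary) at E15, E17 and E18. Ibsp, Slc13a5, Dmp1, Alpl and Sp7 are all below 0 in E15 replicates 3 and 4 and in E17 replicate 1, while Runx2 and Sparc vary less.

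**Figure D5:**
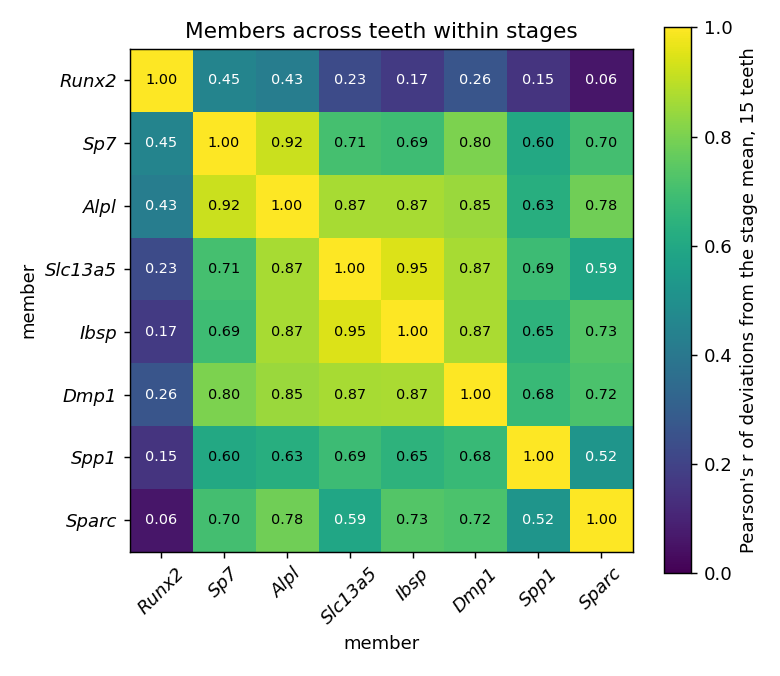
Pearson's r between 8 members (both axes) of the deviations from the stage mean over 15 teeth, by colour and number. The cell of Ibsp and Slc13a5 reads 0.95, that of Sp7 and Alpl 0.92, and the row of Runx2 is between 0.06 and 0.45.

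The shared embryo gave both sides of 1 animal. Its left molar (E17 replicate 1) had 899 normalized counts of Ibsp and its right molar (replicate 2) 3241, a 3.60-fold difference. The right tooth was also higher in Dmp1 (3.84-fold), Slc13a5 (3.21-fold), Sp7 (2.80-fold), Spp1 (2.64-fold) and Alpl (2.49-fold). Amelx differed by 1.38-fold, Runx2 by 1.36-fold and Sparc by 1.09-fold, and Ambn was lower on the right, at 1 raw count against 5. Both molars were thus nearly equal in Sparc and far apart in the acidic matrix genes; a single pair allows no test. The summed mesenchyme markers of these teeth were 22589 and 20189, the epithelium markers 2361 and 2039 and the osteoclast markers 546 and 863, and their part in the difference was not tested.

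The windows before the starts of Ibsp and Slc13a5 are shown because this pair had the most similar levels over the teeth. Neither holds TGTGGT or ACCACA, the only spellings of a RUNX site that were searched. The Ibsp window is chr14:5757243-5757492 on the minus strand of GRCr8, on the chromosome that also carries Spp1, Dmp1 and Ambn, and the Slc13a5 window is chr10:57388849-57389098 on the minus strand, on the chromosome of Sparc. Both are therefore in lower case throughout.
Ibsp: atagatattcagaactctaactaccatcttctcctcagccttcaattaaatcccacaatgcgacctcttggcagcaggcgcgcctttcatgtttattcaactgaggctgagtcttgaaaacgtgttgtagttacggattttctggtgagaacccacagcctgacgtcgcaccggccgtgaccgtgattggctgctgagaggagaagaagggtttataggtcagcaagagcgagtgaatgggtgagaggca
Slc13a5: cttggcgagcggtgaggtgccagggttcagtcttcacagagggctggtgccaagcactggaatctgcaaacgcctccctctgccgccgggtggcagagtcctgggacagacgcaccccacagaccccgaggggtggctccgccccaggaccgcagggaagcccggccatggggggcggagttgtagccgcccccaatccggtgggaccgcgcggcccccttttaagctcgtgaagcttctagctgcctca

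The genes most similar to each member over the 15 teeth were sought among 333 genes with a symbol, other members included, as a description. Apart from members, these candidates were the study's listed tooth development and signalling pathway genes. The kinds of gene that could be found were therefore set by those lists. Runx2 was most similar to Frzb, a secreted Wnt antagonist (r 0.85), and then to Dlx6 (0.84) and Tab2 (0.80). Sp7 was most similar to Bmp6, a bone morphogenetic protein (0.92), Nrp2 (0.84) and Msx1 (0.79), and Alpl to Nog, the BMP antagonist noggin (0.88), then Dmp1 (0.83) and Fgfr3 (0.80). After Slc13a5, Ibsp was closest to Wnt16 (0.84) and to Tnc, the matrix protein tenascin C (0.82), and Slc13a5 after Ibsp to Tnc (0.87) and Wnt16 (0.80). Dmp1 came nearest to Alpl (0.83), Ibsp (0.80) and Tnc (0.76). Sparc was most similar to Jag1, a Notch ligand (0.97), Ndrg1 (0.96) and Lama3 (0.96). For Sparc a large part of this was shared stage, since with stage means removed r with Jag1 was 0.71, whereas for Sp7 and Bmp6 it was still 0.92.

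Other genes of hard tissue were taken from lists by function. Their counts stand beside the shares of all genes called, 18.3% from E15 to E17, 2.54% from E17 to E18 and 21% over the whole span. Of 12 regulators 6 could be matched to a row (Runx3, Dlx3, Dlx5, Dlx6, Msx2 and Sp6). From E15 to E17, 1 was higher, 1 lower and 4 not called, with Sp6, the epithelial factor epiprofin, at a log2 fold change of 4.17 ± 0.14 (adjusted p = 2.57e-09, edgeR) and Dlx6 falling. From E17 to E18, 3 of 6 were higher, Msx2 (1.41), Sp6 (1.06) and Dlx3 (0.73), and none lower. The call of Dlx3 was lost in the fit of all 15 libraries (0.73) and without E17 replicate 2, 3 or 5 or E18 replicate 2, 4 or 5 (0.66 to 0.75, adjusted p up to 0.0779, edgeR). Over the whole span 3 were higher and 1 lower, and the median log2 fold change was 0.60, where that of all genes was -0.02. Msx2, a homeobox factor of ameloblasts and osteoblasts, went from 116 ± 59.5 normalized counts at E15 to 173 ± 31.9 at E17 and 462 ± 72.3 at E18 (SD, n = 5), while Runx2 and Sp7 went down over the same span.

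Of the dentin and bone matrix list 4 of 11 genes could be matched (Col1a1, Postn, Tnc and Dcn), and 3 of them rose from E15 to E17 (Col1a1, Postn and Dcn), of which Postn was not called with all 15 libraries in 1 fit (0.34, adjusted p = 0.240, edgeR). That fit takes in E18 replicate 3, the lowest E18 tooth in Postn (10443 normalized counts, E18 median 20042). It was not repeated without this tooth. Col1a1, the main collagen of bone and dentin, rose by 1.19 ± 0.24 on the log2 scale (adjusted p = 0.00367, edgeR), and Dcn, the collagen-binding decorin, by 0.92 ± 0.16 (adjusted p = 0.0017, edgeR). None of the 4 was called from E17 to E18, and the 2 called over the whole span were again Col1a1 (1.47 ± 0.24) and Dcn (0.90 ± 0.21). The 3 enzymes and proteases with a row (Fam20c, Mmp13 and Mmp14) were all higher at E17 than at E15, where 18.3% of all genes were called. Mmp13, collagenase-3 of osteoblasts and cartilage, showed the largest change of these lists, from 4.14 ± 3.0 normalized counts at E15 to 121 ± 162 at E17 and 226 ± 144 at E18 (SD, n = 5). Its log2 fold change was 4.75 ± 0.87 for E17 against E15 and 5.66 ± 0.65 for E18 against E15 (adjusted p = 0.00206 and 0.00012, edgeR). E17 replicate 4, the tooth highest in Spp1 and Mmp9, held 409 of Mmp13, against 22.9 to 69.6 in the other E17 teeth, and without it the first value was 3.45. Fam20c, the kinase that phosphorylates the acidic matrix proteins, rose in both steps (0.94 ± 0.17, adjusted p = 0.00174, and 0.54 ± 0.09, adjusted p = 0.0137, edgeR), the second not called with all 15 libraries in 1 fit (adjusted p = 0.0638, edgeR).

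Of the enamel list only Fam20a, the partner of FAM20C, could be matched to a row, and it rose by 0.88 ± 0.22 from E15 to E17 and by 1.54 ± 0.22 over the whole span (adjusted p = 0.0133 and 0.000457, edgeR). Of the osteogenic signals and receptors, 9 of 15 could be matched. From E15 to E17, 1 was higher (Bmp7) and 1 lower (Bmp2), from E17 to E18 Bmp2 alone was called (-0.75 ± 0.14, adjusted p = 0.023, edgeR), and over the whole span 2 were higher and 2 lower. Of all genes, 18.3%, 2.54% and 21% were called in these comparisons, so the count from E15 to E17 was near the share of all genes. The Bmp2 call between E17 and E18 was lost without E17 replicate 2, 3, 4 or 5 or E18 replicate 2 or 5 (-0.77 to -0.70, adjusted p up to 0.0732, edgeR). Ihh, the hedgehog ligand of growing bone, was the largest of these, at 71.6 ± 31.0 normalized counts at E15, 40.6 ± 20.7 at E17 and 9.97 ± 5.39 at E18 (SD, n = 5), with a log2 fold change of -2.77 ± 0.42 for E18 against E15 (adjusted p = 0.000786, edgeR).

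In the keystone classification of the study, which rests on mouse mutants, Runx2 is a progression gene, and Alpl, Ambn, Amelx, Dmp1 and Slc13a5 are tissue genes, whose loss alters hard tissue, while Spp1 is listed as dispensable for tooth development. Of the 27 tissue genes 22 had a row and 21 were tested. From E15 to E17, 8 were higher and 1 lower (Sp3), with a median log2 fold change of 0.28 against -0.01 for all genes, of which 18.3% were called in either direction. With all 15 libraries in 1 fit, Sp3 (-0.31, adjusted p = 0.784, edgeR) and Postn were not called. That fit takes in E18 replicate 3, the lowest E18 tooth in both genes. It had 94.8 normalized counts of Sp3, where the E18 median was 2229. The fit was not repeated without this tooth. The 4 largest were Lama3, a laminin chain (1.28), Perp, a desmosome protein (1.17), Fam20c and Fam20a. None of the 4 members of the class that could be tested (Alpl, Amelx, Dmp1 and Slc13a5) was called in this step. From E17 to E18, 2 were higher (Nectin1 at 0.62 and Fam20c) and Slc13a5 alone was lower; Nectin1 was not called without E17 replicate 2 (0.60) or E18 replicate 5 (0.58), and Fam20c not with all 15 libraries in 1 fit. Over the whole span 7 were higher, and Slc13a5 was again the 1 called lower. Sp3 was not called over this span (-0.58 ± 0.56, adjusted p = 0.490, edgeR), with 4 of 5 E18 teeth below all E15 teeth. Of all genes, 2.54% were called from E17 to E18 and 21% over the whole span. Among the tissue gene calls over the whole span, that of Mmp14 was lost in 8 of 16 alternatives (adjusted p up to 0.108, edgeR) and that of Slc13a5 in 6 of 16.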

How the data were processed

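Single-tooth total RNA had been made into libraries with the Ovation Rat RNAseq System. The authors deposited estimated counts per gene from Salmon as whole numbers, under mouse Ensembl identifiers, for all 15 libraries. How rat transcripts were assigned to mouse identifiers is not given in the sources used here. Per the labels, the reads of E18 passed FastQC 0.11.8, Trimmomatic 0.39 and Salmon 0.99.0; the Salmon version of the other stages and any use of strand are not given in the sources used here, so overlapping genes are uncertain. A second deposited table under rat identifiers, with E15 and E17 alone, was not used here. Symbols came from the study's 399 pairs of symbol and identifier and the identifiers of the members; of list genes without such a pair nothing was analysed. A further dental epithelium marker is not reported here.

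Stages were compared with edgeR 4.0.16 (R 4.3.3; quasi-likelihood F test, TMM, filterByExpr) on the libraries of both stages alone, with Benjamini-Hochberg adjustment over all genes tested and a threshold of 0.05. The contrast between steps and the left-right test used all 15 libraries. The test was checked on simulated data. DESeq2 1.42.0 gave size factors for the levels and an alternative test. Replicates are separate teeth, so p-values measure the spread between teeth, with 2 E17 teeth from 1 embryo; no pair of libraries agreed within sampling noise (chi-square per gene 6.33 to 160 over 30 pairs). Replicate numbers pair no samples across stages. The members and lists were chosen with earlier results of these data known. All members are named in each comparison, and of the lists up to 8 called genes by size of change; genes of similar pattern are the 3 with the highest Pearson correlation over 15 libraries.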

Additional observations from a re-analysis of the deposited data

Results flagged for a closer look

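Of 32 groups of 5 teeth examined, 7 held 1 value far from the rest by Dixon's test. About 1.6 would be flagged by chance if the groups were normally distributed and independent. Several members varied together over the same teeth, so 7 against 1.6 does not measure an excess over chance. In E17 replicate 1, Sp7 (381 normalized counts) and Alpl (1435) were far below the other 4 teeth. In E17 replicate 4, Spp1 (659) was far above them, and so was Dmp1 in E17 replicate 5 (493). The remaining 3 were library totals, 24109716 counts in E15 replicate 1, 16239849 in E17 replicate 3 and 27571541 in E18 replicate 1. Causes were not tested.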

How the results depend on the processing

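Sparc and Spp1 between E15 and the later stages, Runx2 between E15 and E18 and Slc13a5 between E17 and E18 were called in every alternative in which they were tested. With at least 10 counts required in every library, Spp1 was not tested and 1 member was called between E15 and E17. Leaving out 1 tooth gave 1 to 2 called members for E18 against E17, 3 to 6 for E18 against E15 and 0 to 1 for the contrast between steps, for which DESeq2 called 2. Over all genes, E17 against E15 had 2315 calls, and 1514 with all 15 libraries in 1 fit. E18 against E17 had 323 calls, 658 with DESeq2, 212 with the teeth of the shared embryo summed, 141 (without E17 replicate 3) to 713 (without E18 replicate 3) on leaving out 1 tooth, and 1072 without E18 replicates 1 and 3 together, an alternative chosen after seeing the data. The contrast between steps had 71 calls, 222 with DESeq2 and 37 (without E17 replicate 4) to 209 (without E18 replicate 3) on leaving out 1 tooth.

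The sign turned only for differences that had passed no threshold. On leaving out 1 tooth, E18 against E15 ranged from -0.061 (without E15 replicate 4) to 0.39 for Alpl and from -0.0062 (without E15 replicate 3) to 1.18 for Amelx, E17 against E15 from -0.35 to 0.81 (without E15 replicate 2; 0.013 without E17 replicate 1) for Amelx, and E18 against E17 from -0.20 (without E17 replicate 1) to 1.19 (without E17 replicate 4) for Spp1, which was also -0.16 with the shared embryo summed and -0.17 without E18 replicates 1 and 3 together. The contrast between steps ranged from -0.11 (without E17 replicate 1) to 0.24 for Runx2, from -0.25 (without E17 replicate 1) to 0.27 for Sp7 and from -0.48 (without E15 replicate 2) to 0.68 for Amelx. The cause was not tested. The planned repeat on the second count table was not run, because its rat identifiers could not be joined to the members here. No paired analysis was possible because replicate numbers follow the order of deposit and pair no teeth. With 3 counts as the floor, Ambn, Amelx and E15 Spp1 are limited by depth.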
